A study of Mus musculus with 5 samples.

Results

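A set of 10 matricellular and elastic fibre genes was followed in lungs of bleomycin-treated mice: Postn, Tnc, Thbs1, Thbs2, Sparc, Tgfbi, Eln, Fbn1, Mfap4 and Mfap5. They were taken by symbol from the array's probe annotation, and a gene was kept if it had values on at least 4 of the 5 arrays. Of the 10 genes, 9 had a feature on the array, and 6 of these passed, namely Postn, Tnc, Sparc, Tgfbi, Eln and Mfap4, among 10081 genes and unnamed features tested in all. Each array was hybridised with amplified lung RNA of 1 bleomycin-treated 129svJ mouse (an inbred strain) in channel 1 and with amplified RNA pooled from lungs of control 129svJ mice in channel 2. Bleomycin cleaves DNA, and in mice it is a common means of producing lung injury followed by scarring. The 5 arrays form 1 group of 5 mice, and the pool is the only control. The sources used here give no genotype beyond the strain, and no sex, age, dose, route, time after treatment or number of mice in the pool.

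The values are log2 ratios of the mouse and the pool on each array, with the array's median set to 0. The labels name no dyes, and the order of the channels in the labels does not settle which way the deposited ratio runs. Each result is therefore given as a size and as the side of 0 on which it lay, without saying whether the bleomycin mouse or the pool had more of the RNA. The 5 arrays shared 1 orientation: for each pair of arrays the correlation across named genes was positive (Pearson's r from 0.737 to 0.859). These genes are not independent replicates, and every array shares the pool. No source names the log base. Log2 was assumed, and a natural logarithm would make every fold larger. The arrays held values for 11350 to 12083 of 17280 features, and their number limits the precision, since no intensities were used. In whole lung, fewer cells of a type and less RNA per cell cannot be told apart.

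Elastic fibres let the lung recoil after each breath. They have a core of elastin, encoded by Eln, laid down on microfibrils of fibrillin and microfibril-associated glycoproteins and cross-linked by lysyl oxidases. Matricellular proteins are secreted into the matrix but act mainly by signalling to cells through integrins and other receptors or by binding growth factors, rather than by bearing load. Periostin, tenascin C and the TGF-beta-induced protein are well known in healing and scarring tissue.

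The annotated promoters of Postn and Tnc are shown because these were the measured genes farthest from 0 on either side. Of the 6 measured genes, Postn, Tnc, Sparc and Tgfbi had an entry in the RefSeq promoter table. The bases are the 250 before an annotated start on build GRCm38.p6 of strain C57BL/6J, which is not the strain of these mice. For each of the pair, the start farther along the gene's own strand is shown, at chr3:54360857-54361106 on the plus strand for Postn and at chr4:64046937-64047186 on the minus strand for Tnc. Capitals mark matches to 5 motifs searched on both strands, which were the core promoter motif TATAAA and its variant TATATAA, which can overlap each other, the Smad-binding motif CAGAC, the AP-1 motif TGANTCA and the GC box motif GGGCGG.
Postn: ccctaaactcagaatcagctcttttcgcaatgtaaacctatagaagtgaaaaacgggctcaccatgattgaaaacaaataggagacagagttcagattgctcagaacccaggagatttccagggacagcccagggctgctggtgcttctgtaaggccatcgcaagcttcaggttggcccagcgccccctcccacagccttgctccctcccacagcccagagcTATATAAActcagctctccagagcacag
Tnc: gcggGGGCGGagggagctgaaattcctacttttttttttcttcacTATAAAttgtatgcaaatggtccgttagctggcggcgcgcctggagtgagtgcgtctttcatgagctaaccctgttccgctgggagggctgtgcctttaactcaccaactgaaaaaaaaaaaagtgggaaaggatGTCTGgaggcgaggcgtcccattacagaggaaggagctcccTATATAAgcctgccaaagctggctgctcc

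Both windows held the letters TATATAA just before the start, 28 to 22 bases before it in Postn and 29 to 23 bases before it in Tnc. Each gene has 2 annotated starts, the window shown was chosen after the matches were seen, and the window of the other start lacked TATATAA in both genes. These letters occurred in 3.04% of the 32851 promoter windows of the table, and TATAAA in 12.4%. Tnc also held CAGAC on the opposite strand 70 to 66 bases before the start, a motif found in 42.2% of all windows, and GGGCGG 246 to 241 bases before it, found in 32.7%. Sparc held CAGAC 35 to 31 bases before its start and neither TATA form, and Tgfbi held CAGAC at 2 places and GGGCGG at 1. TGANTCA, present in 6.75% of all windows, was found in none of the windows of the 4 genes. A match describes the letters and is not a bound site.

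The comparison of treated lung with control lung asks which genes differ between them. Postn and Sparc lay above 0 and Tnc, Tgfbi and Eln below 0 on all 5 arrays, and Mfap4 was the only measured gene of the set that did not pass the test. By limma's moderated test of the mean against 0, 5 of the 6 passed (Benjamini-Hochberg adjusted p under 0.05), 3 below 0 and 2 above 0. Among all 10081 genes and features tested, 49.6% passed, 23.9% below 0 and 25.8% above 0. All arrays lay on 1 side of 0 for 5 of the 6 and for 57.3% of everything tested. The pool stands for all control mice in this test, and its own deviation enters every array alike. When the pool was instead given the spread of a single control mouse, Postn alone passed among the 6, against 5.09% of all. No control mouse was measured singly, so that spread was assumed equal to the spread between the bleomycin mice. Postn was also the only one of the 6 that passed the test against 0 and had a mean of at least 2-fold. Of everything tested, 5.59% did so. The 2-fold size was a cut on the mean and was not tested. The 95% interval of Postn began below 2-fold, at 0.91 on the log2 scale.

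**Figure D1:**
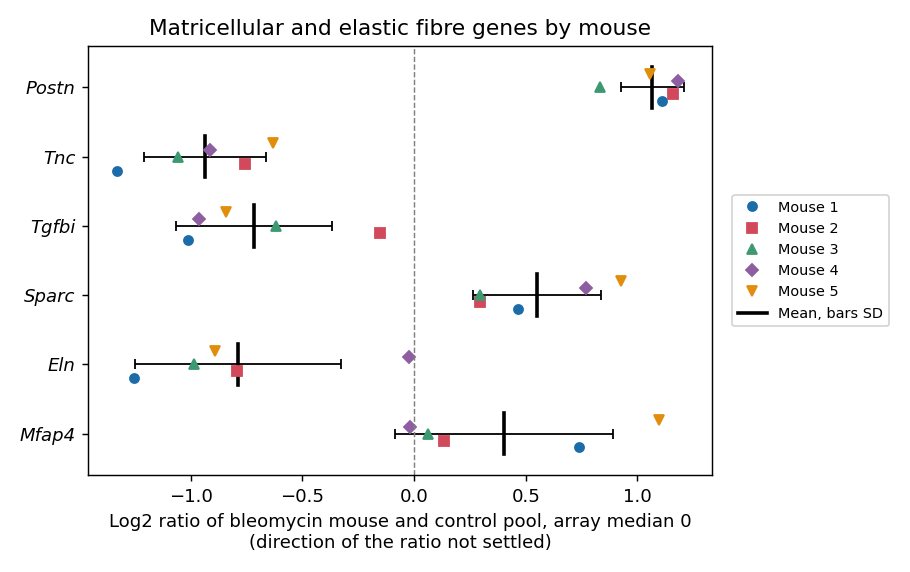
Log2 ratio of bleomycin mouse and control pool (x axis, array median 0) for the 6 measured genes (rows). Symbols are the 5 mice, the thick line is the mean and bars are the SD. Postn and Sparc lie above 0 in every mouse, Tnc, Tgfbi and Eln below 0 in every mouse, and Mfap4 in mouse 4 is at −0.017.

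Postn encodes periostin, a secreted fasciclin-domain protein that binds integrins and helps collagen assemble and cross-link. Its log2 ratio was 1.11, 1.16, 0.83, 1.18 and 1.06 in mice 1 to 5. The mice lay close together, with mouse 3 somewhat nearer to 0 than the other 4. The mean was 1.07 ± 0.14 (SD, n = 5 mice), a 2.10-fold difference, with a 95% interval from 0.91 to 1.22 and an adjusted p of 4.63e-05 by limma. Its size ranked at percentile 95.2 of everything tested, while its spread between mice ranked at percentile 43.4. With the pool given the spread of 1 control mouse, its adjusted p was 0.0174.

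Tgfbi encodes the TGF-beta-induced protein, also a secreted fasciclin-domain protein, named for its induction by that growth factor. Its log2 ratio was −1.01, −0.15, −0.62, −0.96 and −0.84 in mice 1 to 5. Mouse 2 stood nearest to 0 and the other 4 lay well below it. The mean was −0.72 ± 0.35 (SD, n = 5), a 1.64-fold difference, with a 95% interval from −1.01 to −0.42 and an adjusted p of 0.00336 by limma. The 2 fasciclin-domain genes thus lay on opposite sides of 0 in all 5 mice, and on the log2 scale Postn exceeded Tgfbi by 1.79 ± 0.39 (SD, n = 5), from 1.31 to 2.15.

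Tnc encodes tenascin C, a large glycoprotein that is scarce in most adult tissue and appears in development and repair. Its log2 ratio was −1.33, −0.75, −1.06, −0.91 and −0.63 in mice 1 to 5. All mice lay well below 0, with mouse 1 lowest and mouse 5 nearest to 0. The mean was −0.94 ± 0.27 (SD, n = 5), a 1.91-fold difference, with a 95% interval from −1.18 to −0.70 and an adjusted p of 0.000444 by limma. With the pool given the spread of 1 control mouse it missed the threshold, at an adjusted p of 0.0852, as did Sparc (0.279), Tgfbi (0.24) and Eln (0.309).

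Sparc encodes osteonectin, a calcium- and collagen-binding protein that affects how procollagen is processed and how cells attach. Its log2 ratio was 0.47, 0.30, 0.29, 0.77 and 0.93 in mice 1 to 5. Mice 4 and 5 stood above the other 3. The mean was 0.55 ± 0.29 (SD, n = 5), a 1.46-fold difference, with a 95% interval from 0.30 to 0.80 and an adjusted p of 0.00494 by limma. Against a minimum difference of 1.2-fold, Sparc missed the threshold (adjusted p = 0.0732), whereas Postn, Tnc, Tgfbi and Eln passed, and 18.3% of everything tested passed.

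Eln encodes tropoelastin, the soluble subunit of elastin, made in lung mainly by smooth muscle cells and fibroblasts. Its log2 ratio was −1.25, −0.79, −0.98, −0.022 and −0.89 in mice 1 to 5. Mouse 4 lay just below 0 and the other 4 well below it. The mean was −0.79 ± 0.46 (SD, n = 5), a 1.73-fold difference, with a 95% interval from −1.17 to −0.41 and an adjusted p of 0.0065 by limma. Without mouse 4 the mean was −0.98 with an adjusted p of 0.000712. Its spread ranked at percentile 95.9 of everything tested.

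Mfap4 encodes a fibrinogen-domain glycoprotein of microfibrils that binds elastin and fibrillin. Its log2 ratio was 0.74, 0.13, 0.062, −0.017 and 1.10 in mice 1 to 5. Mice 1 and 5 stood clearly above 0, and the other 3 lay near it. The mean was 0.40 ± 0.49 (SD, n = 5) with an adjusted p of 0.0883 by limma, and the 95% interval from −0.00083 to 0.81 includes both no difference and one as large as that of Eln. Without mouse 5 the mean was 0.23. It had the widest spread of the 6, at percentile 96.6 of everything tested.

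**Figure D2:**
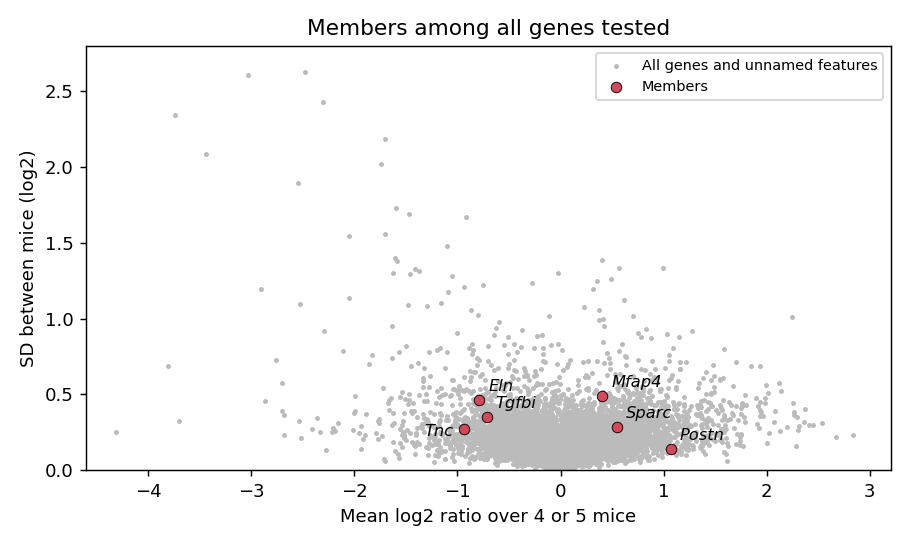
Mean log2 ratio (x axis) against SD between mice (y axis, log2) for all 10081 genes and unnamed features tested (grey) and the 6 measured genes of the set (red). Postn has a mean of 1.07 and the lowest SD of the set, 0.14, which is at percentile 43.4 of everything tested. Eln and Mfap4 have the highest SDs of the set, 0.46 and 0.49.

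The 4 genes without a test had too few values or no feature. Mfap5, a microfibril glycoprotein, had values on 2 arrays, 0.049 in mouse 3 and −0.0030 in mouse 4. Thbs1, encoding thrombospondin 1, a platelet and matrix protein that activates latent TGF-beta, had 1 value, −0.16 in mouse 2. The feature of Thbs2 had 0 values, and Fbn1, encoding fibrillin 1, was not in the probe annotation.

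By a rule of likeness, the 3 genes with values on all 5 arrays whose log2 ratios had the smallest root mean square difference from each gene were found among 7436 candidates. For Postn these were Tab2, Gstm3 and Mon2, at 0.049 to 0.10. For Tnc they were Osmr, a subunit of the oncostatin M receptor, Anapc15 and Mrpl54, at 0.089 to 0.12. For Sparc they were Stk11, Nfib and Ncoa5 (0.12 to 0.13), and for Tgfbi Chsy3, Hal and Psg16 (0.082 to 0.11). For Eln the nearest were Pfdn6, Tmem208 and Dda1, at 0.15 to 0.20, and for Mfap4 Bnip3l, Ankrd42 and Rpn2, each at 0.21. Eln and Mfap4, the genes with the widest spread, had the least similar neighbours. The differences were not scaled to the spread, so this measure by itself leaves a gene of wide spread with fewer near neighbours.

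Genes of elastic fibre and microfibril assembly lay on both sides of 0. Of 28 listed genes 17 were measured, including Eln and Mfap4, and 5 were below 0, 6 were above 0 and 6 did not pass, with a median of 0.082 against −0.0070 for everything tested. The share that passed was 64.7%, beside 49.6% for everything tested. With the spread of 1 control mouse given to the pool, 1 passed on each side, Loxl1 and Ltbp4.

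The lysyl oxidases, which cross-link elastin and collagen, lay below 0 together with Eln. Loxl1, the family member tied to elastic fibres, was −0.76, −0.71, −1.09, −0.77 and −0.86 in mice 1 to 5, a mean of −0.83 ± 0.15 (SD, n = 5; adjusted p = 0.000132 by limma). Lox averaged −0.82 ± 0.39 and Loxl2 −0.70 ± 0.27 (adjusted p = 0.00279 and 0.0015 by limma). Loxl4, singled out after its values were seen, averaged −0.31 ± 0.085 (adjusted p = 0.00313). All 4 lay below 0 in every mouse, and no other lysyl oxidase was measured. Mouse 3 was the lowest for all 4, at −1.45 for Lox, whereas Eln was lowest in mouse 1. For Loxl4, mouse 3 at −0.396 was hardly below mouse 5 at −0.394.

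Fibulins and latent TGF-beta binding proteins that passed lay above 0, and Fbln7 and Ltbp2 did not pass. Fbln7 averaged 0.011 ± 0.046 (adjusted p = 0.854 by limma). Ltbp2 averaged −0.20 ± 0.19 on 4 arrays and lay below 0 on each of them (adjusted p = 0.102). Fbln1, which encodes fibulin 1, a glycoprotein that binds elastin, was 2.24, 1.70, 1.28, 1.24 and 1.28 in mice 1 to 5, a mean of 1.55 ± 0.43 (SD, n = 5; adjusted p = 0.00029 by limma). Efemp1, which encodes fibulin 3, averaged 1.13 ± 0.40 (adjusted p = 0.000848), and mouse 1 stood apart from the rest at 1.84. Ltbp4, needed for elastic fibre assembly and storage of latent TGF-beta, averaged 1.30 ± 0.31 (adjusted p = 0.000172). Ltbp1 and Ltbp3, both singled out after their values were seen, averaged 0.65 ± 0.38 and 0.92 ± 0.35 (adjusted p = 0.00686 and 0.00118 by limma), and mouse 1 was again highest for both, at 1.31 and 1.42.

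Mfap2, Mfap3 and Fbn2 did not pass either. Mfap2, a microfibril glycoprotein related to Mfap5, averaged 0.082 ± 0.070 (adjusted p = 0.212 by limma) and Mfap3 −0.16 ± 0.43 (adjusted p = 0.418). Fbn2, encoding fibrillin 2, averaged 0.11 ± 0.17 (adjusted p = 0.221). Their 95% intervals were −0.037 to 0.2 for Mfap2, −0.52 to 0.2 for Mfap3 and −0.055 to 0.28 for Fbn2. These 3 were singled out after their values were seen.

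**Figure D3:**
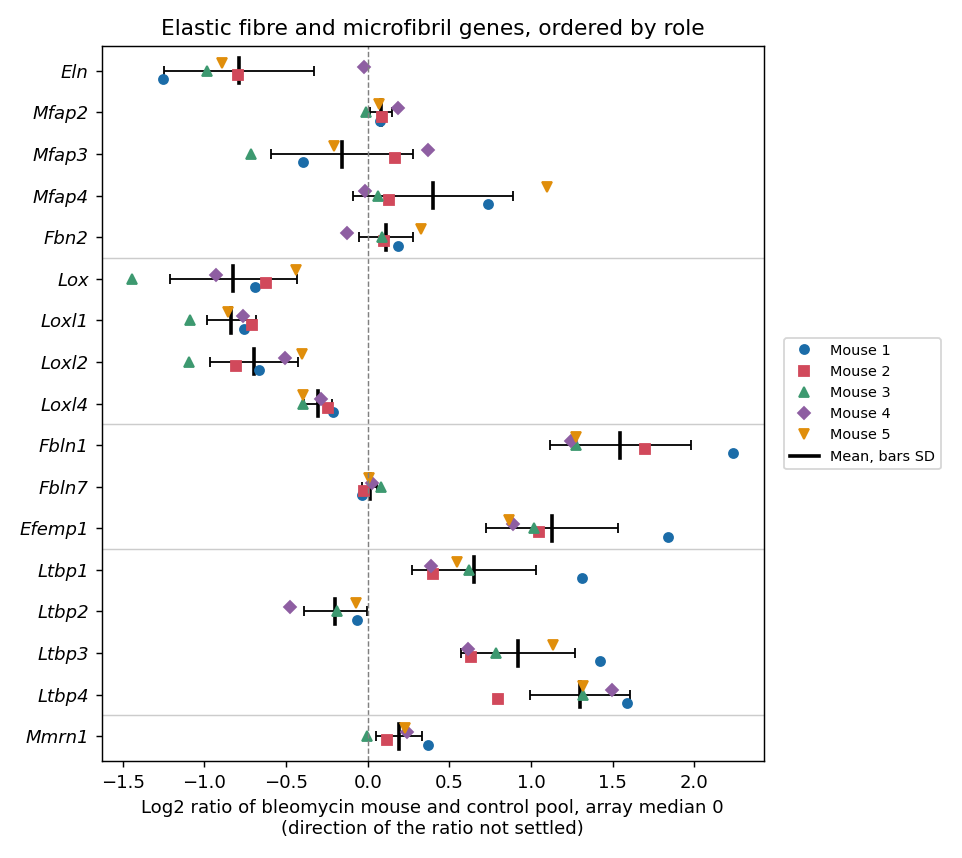
Log2 ratio of bleomycin mouse and control pool (x axis, array median 0) for the 17 measured elastic fibre and microfibril genes (rows; grey lines divide fibre and microfibril components, lysyl oxidases, fibulins, latent TGF-beta binding proteins and multimerin). Symbols are mice, thick lines means and bars SDs. Eln and the 4 lysyl oxidases lie below 0, and Fbln1, Efemp1, Ltbp1, Ltbp3 and Ltbp4 above 0.

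Matricellular genes also lay on both sides of 0. Of 28 listed genes 18 were measured, including Postn, Tnc, Sparc and Tgfbi, and 5 were below 0, 8 above 0 and 5 did not pass. The median was 0.19. The share past the threshold was 72.2%, or 64.3% of 14 without the genes of the set, beside 49.6% for everything tested. With the spread of 1 control mouse given to the pool, 0 passed below 0 and 1 above 0, Postn. The 8 above 0 became 4 against a minimum difference of 1.2-fold, where 18.3% of everything tested passed, and also 4 in a one-sample test without moderation, where 38.3% did.

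Tnc was below 0, while Tnxb, encoding tenascin X, which binds collagen in loose connective tissue, was above it. Tnxb was 0.41, 0.47, 0.54, 0.58 and 0.67 in mice 1 to 5, a mean of 0.53 ± 0.099 (SD, n = 5; adjusted p = 0.00038 by limma). Tnxb exceeded Tnc by 1.47 ± 0.21 on the log2 scale (n = 5), from 1.22 to 1.74. Thbs3 and Thbs4, the thrombospondins that were measured, averaged 0.62 ± 0.44 and −0.61 ± 0.24 (adjusted p = 0.0149 and 0.0017 by limma), a difference of 1.23 ± 0.66. Thbs3 missed the threshold without mouse 3 (adjusted p = 0.0522). In the CCN family of matrix signalling proteins, Ccn5 averaged 0.74 ± 0.37 and Ccn4 −1.17 ± 0.38 (adjusted p = 0.00388 and 0.00059), a difference of 1.91 ± 0.41. The other CCN genes measured did not pass, Ccn2 at 0.30 ± 0.64 on 4 arrays and Ccn3 at −0.11 ± 0.43 (adjusted p = 0.315 and 0.579). These pairs, and that of Postn and Tgfbi, were singled out after their values were seen because their members lay on opposite sides, so the differences are descriptions with no test.

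Of the 7 measured relatives of Sparc, 3 lay above 0, 1 lay below 0 and 3 did not pass. Sparcl1, encoding hevin, was 0.25, 0.93, 0.44, 1.41 and 0.75 in mice 1 to 5, a mean of 0.76 ± 0.45 (SD, n = 5; adjusted p = 0.00712 by limma). Smoc1 averaged 0.57 ± 0.36 and Fstl1 0.61 ± 0.57 (adjusted p = 0.0101 and 0.036), both singled out after their values were seen. Fstl1 in mouse 3 was at −0.22, and leaving out any of the other 4 mice raised its adjusted p above the threshold, to as much as 0.1. The testican Spock1 lay on the other side, at −0.25 ± 0.18 (adjusted p = 0.0311). For Spock1 mouse 1 was at 0.052, and leaving out any of mice 2, 3, 4 and 5 raised its adjusted p above the threshold, to as high as 0.094. Smoc2 averaged 0.075, Spock2 0.0036 and Spock3 0.044 (adjusted p = 0.309, 0.956 and 0.795). In the one-sample test without moderation Sparcl1 (adjusted p = 0.0516), Smoc1 (0.0586), Fstl1 (0.126) and Spock1 (0.0809) all missed the threshold.

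**Figure D4:**
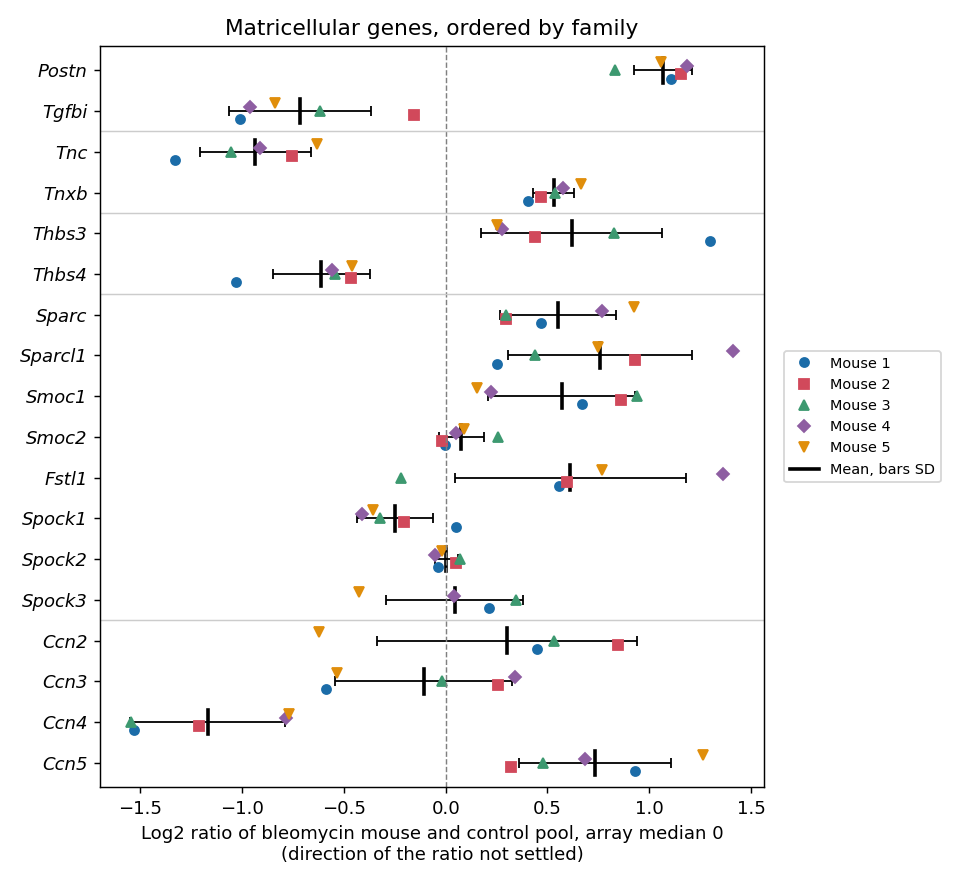
Log2 ratio of bleomycin mouse and control pool (x axis, array median 0) for the 18 measured matricellular genes (rows; grey lines divide the fasciclin-domain, tenascin, thrombospondin, SPARC-related and CCN families). Symbols are mice, thick lines means and bars SDs. Postn and Tgfbi, Tnxb and Tnc, Thbs3 and Thbs4, and Ccn5 and Ccn4 lie on opposite sides of 0.

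Receptors of these proteins passed about as often as genes in general. Of the 24 listed, 13 were measured, 3 were below 0, 3 above 0 and 7 did not pass, which is 46.2% past the threshold, beside 49.6% of everything tested. Cd36, a thrombospondin receptor and fatty acid transporter, averaged 1.45 ± 0.51, and Cd47, also a thrombospondin receptor, 0.49 ± 0.14 (SD, n = 5; adjusted p = 0.000712 and 0.000972 by limma). Itgav, the integrin alpha v chain that binds periostin and tenascin C among others, averaged 0.23 ± 0.11 over 2 features (adjusted p = 0.0159). It missed the threshold without mouse 4 or mouse 5, with adjusted p up to 0.0529, and its mean was 0.11 (adjusted p = 0.207) when features with values on at least 3 arrays were averaged in. Taken by itself, the feature of Itgav nearer to 0 averaged 0.175 ± 0.205 and missed the threshold (adjusted p = 0.116 by limma). Below 0 were the integrin chain Itga4 at −0.43 ± 0.14 on 4 arrays, the collagen receptor Ddr2 at −0.42 ± 0.39 and the galactosidase Glb1, whose splice form binds elastin, at −0.30 ± 0.26. Ddr2 was −1.08 in mouse 1, and without mouse 1 its mean was −0.25 (adjusted p = 0.03). The call of Ddr2 was lost without mouse 2, 3 or 5 and that of Glb1 without mouse 2, 3, 4 or 5, so that 1 receptor passed below 0 without mouse 2 or mouse 5. Against a minimum difference of 1.2-fold, 0 receptors passed below 0 and 2 above 0.

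TGF-beta induces several genes of the set. Of 20 listed genes 12 were measured, 1 was below 0, 6 were above 0 and 5 did not pass, with 58.3% past the threshold, beside 49.6% of everything tested. Against a minimum difference of 1.2-fold, 1 passed below 0 and 0 above 0, and without moderation 1 passed below 0 and 2 above 0. With the spread of 1 control mouse given to the pool, none of the TGF-beta genes and none of the receptors passed, and Timp3 alone of the proteases and inhibitors. The receptor Tgfbr2 averaged −0.64 ± 0.26 (SD, n = 5; adjusted p = 0.00179 by limma). Above 0 were the Smad corepressor Ski at 0.40 ± 0.17, the endothelial coreceptor Eng at 0.38 ± 0.21 on 4 arrays and the signal transducer Smad2 at 0.32 ± 0.22 (adjusted p = 0.00372, 0.016 and 0.0185). Eng lost its call without mouse 3, and Smad2 without mouse 2, 3 or 5. The number above 0 dropped to 3 without mouse 2 or mouse 5 and to 2 without mouse 3. Tgfb1, the ligand itself, averaged 0.0072 ± 0.11 (adjusted p = 0.924).

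Among proteases that cut these proteins and their inhibitors, 10 of 20 were measured, 3 below 0, 3 above 0 and 4 not passing, with 60% past the threshold, beside 49.6% of everything tested. Against a minimum difference of 1.2-fold, 1 passed on each side. Mmp14, a membrane-bound matrix metalloprotease, averaged −1.01 ± 0.31, and Timp3, an inhibitor held in the matrix, 0.97 ± 0.17 (SD, n = 5; adjusted p = 0.000513 and 1e-04 by limma). Slpi, an inhibitor of neutrophil elastase, averaged −1.48 ± 1.09 on 4 arrays, from −2.70 in mouse 5 to −0.24 in mouse 4, and its call was lost without mouse 2 or mouse 5. Ctsk, the collagen- and elastin-cutting cathepsin K, averaged 0.43 ± 0.16 on 4 arrays (adjusted p = 0.00573). Mmp8 and Mmp3 averaged −0.42 ± 0.42 and 0.16 ± 0.055. Mmp8 lost its call without mouse 1, 2, 3 or 5, and Mmp3 without mouse 2, 3, 4 or 5. Without mouse 2 or without mouse 5 the number below 0 dropped to 1.

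Markers of cell types that make or neighbour this matrix were counted beside these results, where 49.6% of everything tested passed. A marker was counted on a side of 0 only if it passed the threshold. Ratios give no level, so the lung origin of the RNA could not be read from how high a gene was. The surfactant protein gene Sftpa1 averaged 2.41 ± 0.30 (SD, n = 5). The surfactant protein genes Sftpc, at −0.27 ± 1.24, and Sftpd, at 0.14 ± 0.41, did not pass. Medians by mouse are over the markers with values on all 5 arrays, so that each mouse is summarised by the same genes. Of 15 fibroblast markers 10 were measured, 6 below 0 and 3 above 0, and the median over 9 lay between −0.48 and −0.29 in the 5 mice. The fibroblast markers did not share a side, with the collagen gene Col3a1 at −1.29 ± 0.15 and the decorin gene Dcn at 1.93 ± 0.45. Macrophage markers were below 0 for 7 and above 0 for 1 of 8 measured, with medians over 6 of −1.62, −0.55, −0.65, −0.88 and −1.20 in mice 1 to 5. Tgfbi, which macrophages also express, was nearest to 0 in mouse 2 and farthest in mouse 1, as these medians were. The remaining 3 mice came in another order. Tnc and Eln were also farthest from 0 in mouse 1, so that trait was not particular to Tgfbi. The array of mouse 1 had the widest ratios of the 5 (SD over features 0.595). Any part of macrophages or of that width in the values of Tgfbi was not tested.

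Endothelial markers passed above 0 for 6 of 7, with medians over 5 of 1.73, 1.01, 1.21, 1.18 and 1.46 in mice 1 to 5. Smooth muscle and myofibroblast markers passed below 0 for 2 and above 0 for 1 of 5 measured. The desmin gene Des was at −1.19 ± 0.79, from −2.03 in mouse 1 to −0.34 in mouse 4. Tagln was at −0.44 ± 0.34 and Acta2, the actin of myofibroblasts, at 0.71 ± 0.33. Platelet markers passed below 0 for 2 of 3. Skeletal muscle markers passed below 0 for 7 of 9, with medians over 8 from −4.16 in mouse 1 to −0.13 in mouse 3. Alveolar epithelial markers passed above 0 for 4 of 9 and chondrocyte markers below 0 for 2 of 6 (44.4% and 33.3%). Markers of stratified epithelium passed below 0 for 2 of 5, and mesothelial markers passed for 0 of 2 (40% and 0%). The stratified epithelium medians over 5 varied widely, at −0.93, −2.49, −0.13, 0.066 and −2.97 in mice 1 to 5. Its marker Sprr1a averaged −4.31 ± 0.25, at percentile 100 in size of everything tested. The part of these cell types in the results was not tested.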

How the data were processed

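Amplified lung RNA of 5 bleomycin-treated mice was compared, per the labels, with pooled amplified lung RNA of control mice on 2-colour arrays. The values deposited by the authors are 1 log ratio per feature and array, taken as log2 and already centred near 0 (array medians 0.011 to 0.026). The labels name no scanner, dyes, normalization or log base (not given in the sources used here). Each array was centred on its median, and features with values on at least 4 arrays were kept (10702 of 17280). Symbols came from the platform's annotation (14722 features with 1 symbol, 1 with several, 2557 with none), updated by gene identifier with RefSeq's GRCm38.p6 gene table (14445 of 14723 matched), and features of a symbol were averaged. limma 3.58.1 (R 4.3.3) compared every gene's mean with 0 (intercept-only model, empirical Bayes, two-sided, Benjamini-Hochberg over all 10081, threshold 0.05). The procedure was tested on simulated data with independent noise on each array. Those data held no shared deviation of the pool, so false calls due to the pool could not be seen there. The pool counts as 1 control sample, so the spread of control mice is not in the p-values. The labels give no batch, and dye bias does not cancel without a dye swap.

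The genes of the set, the 5 pathway lists and 10 marker lists were chosen with earlier results of these data known. Beyond the set, the text names up to 3 genes past the threshold per side of each pathway list that are farthest from 0, and 3 nearest genes per measured gene. Alternatives changed centring, the filter on missing values, averaging, moderation, scaling, the treatment of the pool, the size tested and the log base, or left out each mouse in turn.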

Additional observations from a re-analysis of the deposited data

Results flagged for a closer look

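In 4 of 44 genes examined, 1 mouse lay far from the others relative to the group's range, where chance gives about 1 in 20. Mouse 1 was the distant one for Efemp1, at 1.84, for Ltbp1, at 1.31, and for Thbs4, at −1.03, and mouse 5 for Itga4, at −0.23 on 4 arrays. Without mouse 1, Efemp1 averaged 0.95, Ltbp1 0.49 and Thbs4 −0.51, and each still passed limma's test. The array of mouse 1 also had the widest ratios (SD over features 0.595, against 0.489 to 0.527 on the others) and the fewest values. With arrays scaled to one SD, the spread between mice went from 0.404 to 0.305 for Efemp1 and from 0.238 to 0.179 for Thbs4. The part of the array's width in these distances was not tested. None of the 6 measured genes of the set had such a mouse.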

How the results depend on the processing

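Across 16 alternatives, Postn, Tnc, Sparc, Tgfbi, Eln and Mfap4 kept their side of 0, and Mfap4 passed the threshold in none. Postn passed in all 16. With the pool counted as 1 control mouse, 513 genes and features passed in place of 5002, and 1 of the set in place of 5. There Tnc, at −0.94, had an adjusted p of 0.0852, Sparc, at 0.55, 0.279, Tgfbi, at −0.72, 0.24, and Eln, at −0.79, 0.309. That setting takes its spread from the bleomycin mice and widens every error by construction. Against a minimum difference of 1.2-fold, 1847 genes passed and Sparc, at 0.55, did not (adjusted p = 0.0732). Without 1 mouse, between 4106 and 4616 genes passed and 5 of the set in each case. The means then ranged from 1.04 to 1.13 for Postn, −1.01 to −0.84 for Tnc, 0.46 to 0.61 for Sparc, −0.86 to −0.64 for Tgfbi, −0.98 to −0.67 for Eln and 0.23 to 0.51 for Mfap4. Of the 28 genes named from the pathway lists, 3 passed with the pool as 1 mouse, Loxl1, Ltbp4 and Timp3, and 15 passed at 1.2-fold. Without each mouse in turn 18 passed throughout and 10 lost the call at least once. Tgfb1 turned to −0.029 without mouse 4 (adjusted p = 0.719) and reached 0.045 without mouse 1, and the cause was not tested. No paired analysis was possible because there is 1 group of mice, each measured against the same pool.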
